A study of Macaca mulatta with 45 samples.

Results

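The 6 genes described here code for enzymes of cholesterol biosynthesis: HMGCS1, IDI1, FDFT1, SQLE, LSS and DHCR7. Members were taken as the rows of the count table whose rhesus macaque Ensembl symbol is one of these names. Of the 30246 gene IDs in the table, 5 matched: HMGCS1 (ENSMMUG00000001226), IDI1 (ENSMMUG00000017115), SQLE (ENSMMUG00000003535), LSS (ENSMMUG00000022329) and DHCR7 (ENSMMUG00000011976). FDFT1, the gene of squalene synthase, matched no row by its ID in the table of gene names and was not analysed here. All 5 passed the filter on low counts in every comparison, and none had fewer than 29 reads in a library.

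Total RNA was sequenced from 3 brain regions of 15 rhesus macaques: the centrum semiovale (deep white matter), the hippocampus and the dorsolateral prefrontal cortex. With 1 library from each region of an animal there were 45 libraries, 5 in each of the 9 groups of treatment and region. Control animals were not unirradiated: they had received 10 Gy to the thorax, with a brain dose labelled 0.1 Gy. The fWBI animals (fractionated whole-brain irradiation) were exposed to 40 Gy in all, split into 8 fractions of 5 Gy, and necropsied 12 months later. The TBI animals (total body irradiation) were necropsied 6 to 9 years after a single dose, which was 6.75 Gy in animals 1 and 2, 7.2 Gy in animals 3 and 4, and 8.05 Gy in animal 5. Age, sex and the time from thoracic irradiation to necropsy are not given in the labels, and dose, fractionation, target and interval all differ between fWBI and TBI, so their parts in any difference cannot be told apart.

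Cholesterol synthesis starts from acetyl-CoA. HMG-CoA synthase (HMGCS1) acts on the way to mevalonate, and IDI1 interconverts the isoprenoid units built from it. Squalene synthase (FDFT1) makes squalene, squalene epoxidase (SQLE) oxidises it, lanosterol synthase (LSS) closes the sterol rings, and DHCR7 carries out the last step of 1 of the routes to cholesterol. Lipoproteins of the blood barely cross into the brain, so the brain makes its own cholesterol, most of which lies in myelin. Genes of the pathway are classically switched on by the transcription factor SREBP2 (gene SREBF2) when cell sterol is low, whereas sterol-activated LXR receptors switch on export genes such as ABCA1 and APOE.

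Libraries held between 6625435 and 12541507 counts in all. As groups, the dissections carried the markers of their labels: in controls, all 8 tested myelin genes were higher and all 10 neuronal genes lower in white matter than in prefrontal cortex. Control white matter libraries 1 and 3 stood apart, with a mean neuronal marker level of 8.12 and 7.28 log2 CPM (a gene's share of the library's counts, on the usual per-million scale) against 4.01, 4.70 and 4.38 in libraries 2, 4 and 5. In control hippocampus that level was 8.04 to 8.56, so white matter library 1 lay inside the range of a grey matter region. Results that use control white matter are therefore also given without those libraries where a printed call or count at the adjusted threshold changed. Differences are log2 fold changes ± the standard error (SE), from 5 animals in each group. P-values are those of the quasi-likelihood test of edgeR, adjusted over all genes tested by the Benjamini-Hochberg method, and a gene passed at an adjusted p under 0.05. These are bulk tissue samples, in which fewer cells of a type and less RNA per cell cannot be told apart. The share of all tested genes whose groups did not overlap was not counted, nor was the share at an unadjusted p under 0.05. Statements on overlap and counts at that unadjusted cut-off therefore describe the named genes only, without a background.

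**Figure D1:**
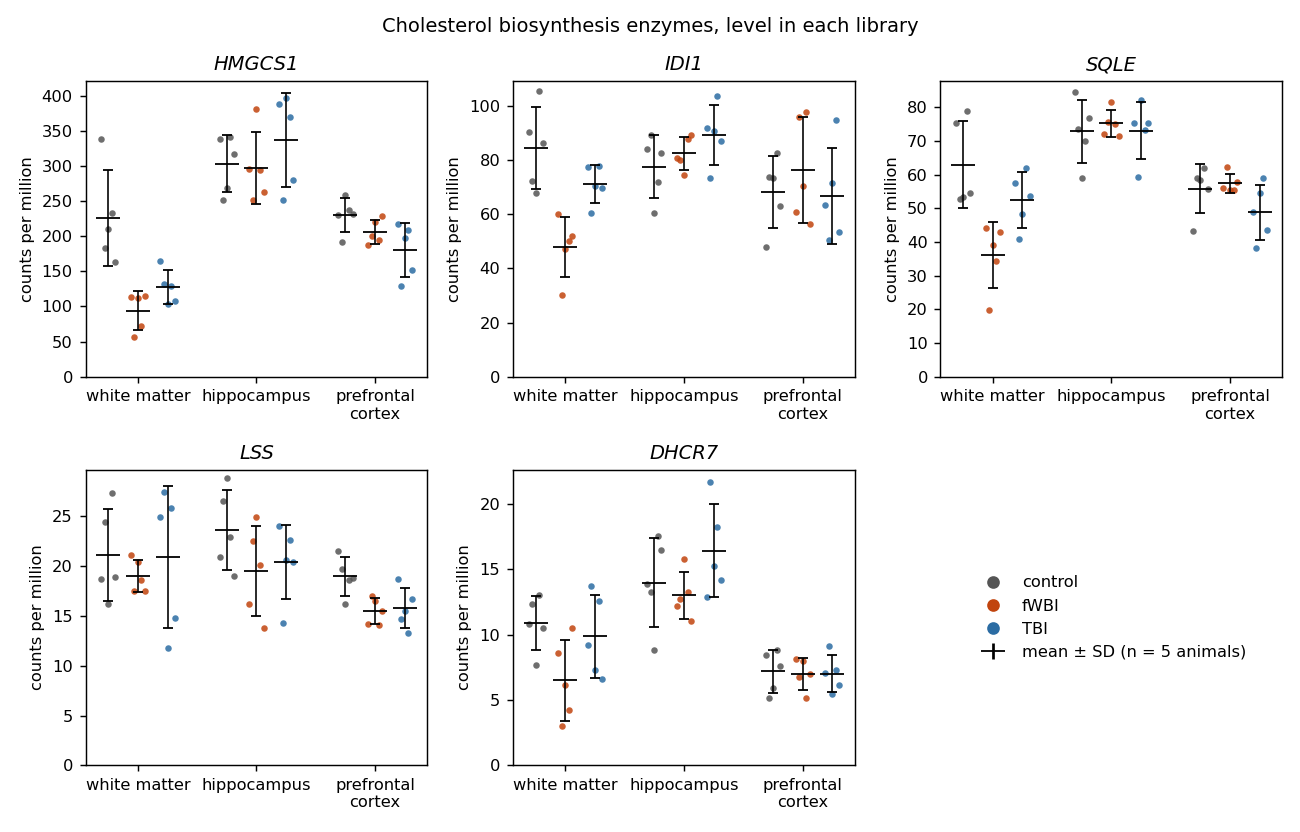
Level of each enzyme gene in CPM (vertical axis, from 0) by brain region (horizontal axis). Points are single libraries of control (grey), fWBI (orange) and TBI (blue) animals, and bars give the mean ± SD of 5 animals. The fWBI white matter points of HMGCS1, IDI1 and SQLE lie below all 5 control points, while the groups overlap for LSS and DHCR7.

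After fWBI, white matter had lower transcript levels of 3 of the 5 enzymes: HMGCS1, IDI1 and SQLE. HMGCS1 was at 0.415 of its control level, IDI1 at 0.569 and SQLE at 0.575. LSS and DHCR7 did not pass. Across the transcriptome 16.8% of 15235 tested genes passed in this comparison, and 8.03% were lower. The median log2 fold change of the 5 members was -0.80, against -0.03 over all genes tested. The plot of levels by library shows these values for every animal.

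HMGCS1, which condenses acetoacetyl-CoA and acetyl-CoA to HMG-CoA, had the greatest fall among the members. In control white matter it was at 338.5, 182.4, 210.6, 232.9 and 163.6 CPM in animals 1 to 5. In fWBI white matter it was at 113.1, 55.9, 111.3, 72.6 and 115.5 CPM. The highest fWBI library lay below the lowest control library, so the groups did not overlap, and control library 1 was well above the other 4. The difference was -1.27 ± 0.23 (95% interval -1.76 to -0.78, adjusted p = 0.0013). Without control libraries 1 and 3 it was -1.02 ± 0.22 (adjusted p = 0.00756).

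IDI1, the isomerase that supplies dimethylallyl diphosphate for chain building, was at 90.4, 72.2, 67.7, 105.5 and 86.4 CPM in control white matter. The fWBI libraries were at 60.2, 30.2, 47.3, 50.0 and 51.9 CPM, all below the lowest control. IDI1 fell by 0.81 ± 0.16 on the log2 scale (95% interval -1.16 to -0.47, adjusted p = 0.00266). SQLE, a flavoprotein that commits squalene to sterol formation, was at 75.3, 52.7, 53.4, 78.8 and 54.7 CPM in controls. In fWBI white matter it was at 44.1, 19.9, 39.2, 34.4 and 43.0 CPM, again with no overlap. SQLE fell by 0.80 ± 0.20 (95% interval -1.22 to -0.38, adjusted p = 0.0114). Library 2 was the lowest of the 5 fWBI libraries for HMGCS1, IDI1, SQLE and DHCR7.

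LSS, which cyclises the epoxide to lanosterol, was at 18.7, 24.5, 16.2, 27.4 and 18.9 CPM in control white matter and at 21.1, 17.6, 20.4, 18.6 and 17.5 CPM after fWBI. All 5 fWBI libraries lay inside the control range. Its difference of -0.15 ± 0.21 did not pass (adjusted p = 0.715), and the 95% interval of -0.60 to 0.30 spans changes in both directions. DHCR7, whose product is cholesterol itself, was at 10.9, 12.3, 7.67, 13.0 and 10.5 CPM in controls and at 8.62, 2.98, 6.18, 4.27 and 10.5 CPM after fWBI. Of the fWBI libraries 3 lay below every control, and libraries 1 and 5 were inside the control range. DHCR7 differed by -0.73 ± 0.30 (95% interval -1.38 to -0.08, adjusted p = 0.119), which did not pass. It passed without fWBI animal 5 (-0.98, adjusted p = 0.041), and not without control libraries 1 and 3 (-0.85 ± 0.34, adjusted p = 0.144). Over all alternatives its value shrank to as little as -0.54, and its adjusted p reached 0.246.

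Cell type markers differed between the same libraries. Oligodendrocyte precursor genes were lower after fWBI for 8 of 8, with a mean of 2.57 to 3.58 log2 CPM in fWBI and 5.21 to 5.93 in control white matter. Genes of activated phagocytes were higher for 5 of 7, at 6.56 to 7.99 against 3.58 to 5.30 log2 CPM. Mature myelin genes passed for 0 of 8 with edgeR (2 at an unadjusted p under 0.05), with a median of -0.31, at 9.72 to 10.3 log2 CPM in fWBI and 9.43 to 10.6 in control. Neuronal genes were lower for 7 of 10, with a median of -2.41, at 3.49 to 4.81 log2 CPM after fWBI. Without control libraries 1 and 3, 10.8% of genes passed, neuronal genes passed for 0 of 10 (median 0.17), and 5 of 8 myelin genes were lower (median -0.54). The 3 enzymes also passed without those libraries, IDI1 at -0.86 ± 0.18 (adjusted p = 0.00536) and SQLE at -0.76 ± 0.22 (adjusted p = 0.0372). Precursor genes were then lower for 7 of 8, PDGFRA (-0.25 ± 0.10, adjusted p = 0.146) being the one that did not pass.

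Astrocyte genes moved in both directions in the same comparison, with 2 of 8 higher and 3 lower and a median of -0.18. Their mean level was 8.54 to 9.04 log2 CPM after fWBI and 8.89 to 9.06 in control white matter, so the groups overlapped. The 5 genes, named after their values were seen, were GFAP, an intermediate filament of astrocytes (1.33 ± 0.22), and GJA1 (0.54 ± 0.17) among the higher, and the glutamate transporter SLC1A2 (-2.25 ± 0.23), ALDOC (-0.77 ± 0.18) and SLC4A4 (-0.66 ± 0.16) among the lower. Without control libraries 1 and 3 the counts were 1 higher and 2 lower, namely GFAP (1.19 ± 0.24), SLC1A2 (-1.97 ± 0.22) and ALDOC (-0.64 ± 0.19). Of 5 tested endothelial genes 2 were higher, PECAM1 (1.55 ± 0.17) and VWF (0.87 ± 0.27), and FLT1 was lower (-0.72 ± 0.22). Their mean level was 4.97 to 5.51 log2 CPM against 4.47 to 5.28 in control, and without those libraries PECAM1 alone passed (1.61 ± 0.21). One of the alternative fits held the mean level of the neuronal markers as a covariate, and HMGCS1, IDI1 and SQLE passed in it. The part of the other cell type markers in the enzymes' fall was not tested.

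**Figure D2:**
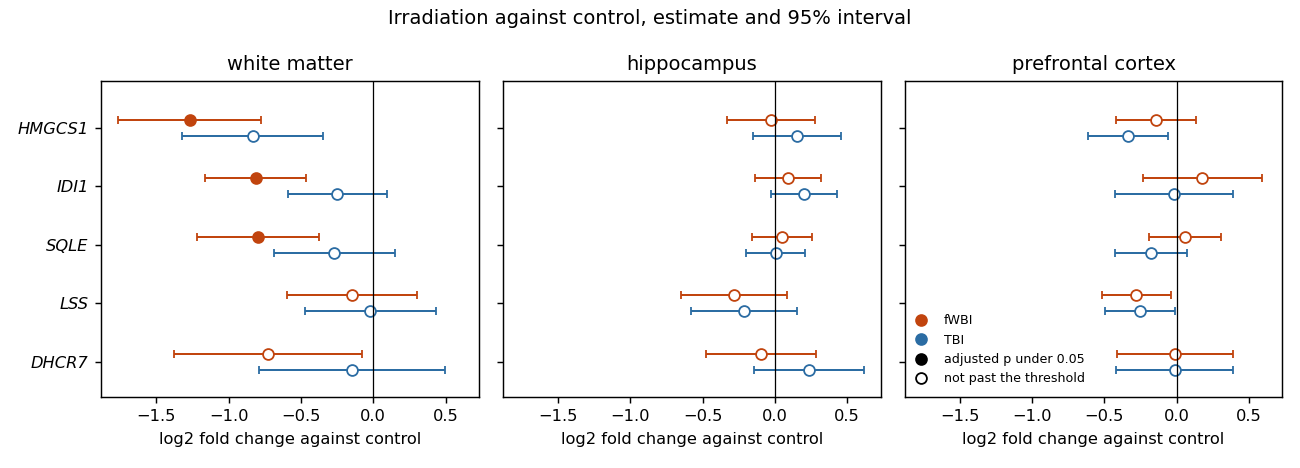
Log2 fold change of each enzyme gene against control (horizontal axis) with its 95% interval, for fWBI (orange) and TBI (blue) in 3 regions, n = 5 animals per group. Filled points passed an adjusted p of 0.05. The only filled points are HMGCS1, IDI1 and SQLE after fWBI in white matter.

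In grey matter of the same animals, none of the 5 enzymes passed after fWBI. With edgeR the count was 0 of 5 in hippocampus, where 0.742% of genes passed, and 0 of 5 in prefrontal cortex, where 1.17% passed. At an unadjusted p under 0.05 the counts were 0 and 1, and DESeq2 also called 0 in both. In hippocampus the difference of HMGCS1 was -0.03 ± 0.14 (95% interval -0.33 to 0.27), that of IDI1 was 0.09 ± 0.11 (-0.14 to 0.32) and that of SQLE was 0.05 ± 0.10 (-0.16 to 0.25). In prefrontal cortex HMGCS1 differed by -0.15 ± 0.13 (-0.42 to 0.13), IDI1 by 0.18 ± 0.19 (-0.23 to 0.59) and SQLE by 0.06 ± 0.12 (-0.19 to 0.30). LSS, the member at an unadjusted p under 0.05, differed by -0.28 ± 0.11 in prefrontal cortex (adjusted p = 0.296), rank 1350 by p of the 15531 genes tested. It was at 21.5, 19.7, 16.2, 18.6 and 18.8 CPM there in controls and at 14.2, 17.1, 16.5, 14.1 and 15.5 CPM after fWBI, so 3 fWBI libraries lay below every control. DHCR7 differed by -0.10 ± 0.18 in hippocampus and -0.01 ± 0.19 in prefrontal cortex.

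The difference of the fWBI effect between regions was tested directly, with animal as a block over all 45 libraries. For white matter minus prefrontal cortex 3 of 5 members passed, where 10% of 16614 genes did and 5.44% were more negative in white matter: HMGCS1 at -1.11 ± 0.21 (adjusted p = 0.000682), IDI1 at -0.97 ± 0.23 (adjusted p = 0.00653) and SQLE at -0.85 ± 0.20 (adjusted p = 0.00629). For white matter minus hippocampus the members that passed had values of -1.24 ± 0.21 for HMGCS1 (adjusted p = 0.000221), -0.90 ± 0.23 for IDI1 (adjusted p = 0.0122) and -0.86 ± 0.20 for SQLE (adjusted p = 0.00617), where 9% of genes passed and 4.86% were more negative. These 2 tests share the white matter libraries. DHCR7 had values of -0.75 ± 0.27 (adjusted p = 0.0773) and -0.71 ± 0.26 (adjusted p = 0.088), neither past the threshold, and passed both without fWBI animal 5 (adjusted p = 0.0111 and 0.00743). LSS was at 0.16 ± 0.25 in both. For hippocampus minus prefrontal cortex 0 of 5 members and 0% of genes passed with edgeR, with 0 members at an unadjusted p under 0.05.

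After TBI no member passed in any region. In white matter 0 of 5 passed with edgeR, where 0.0722% of genes did, against 1 of 5 at an unadjusted p under 0.05 and 1 with DESeq2. That member was HMGCS1, at 165.2, 131.2, 103.9, 129.0 and 108.2 CPM in TBI animals 1 to 5. Of these, 4 lay below the lowest control library, and all 5 lay below the control mean of 225.6 ± 68.4 CPM (SD, n = 5). The difference was -0.83 ± 0.23 (95% interval -1.32 to -0.34, adjusted p = 0.135). It passed with DESeq2 (adjusted p = 0.0254) and with all 45 libraries in the edgeR fit (adjusted p = 0.00231), and was -0.59 without control libraries 1 and 3 (adjusted p = 0.587). The fit with all 45 libraries had no block for animal, so it took the regions of an animal as independent.

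The other members differed less after TBI in white matter. IDI1 was at 77.4, 60.7, 70.5, 77.9 and 69.8 CPM, inside the control range but for animal 2, and differed by -0.25 ± 0.16 (adjusted p = 0.449). SQLE was at 57.4, 40.8, 48.2, 62.0 and 53.8 CPM, with animals 2 and 3 below every control, and differed by -0.27 ± 0.20 (adjusted p = 0.51). LSS differed by -0.02 ± 0.21 and DHCR7 by -0.15 ± 0.30. In TBI white matter LSS was spread from 11.8 to 27.4 CPM and DHCR7 from 6.59 to 13.7 CPM, with animals 1, 2 and 4 higher than 3 and 5 for both.

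In hippocampus and prefrontal cortex the counts after TBI were 0 of 5 with edgeR and with DESeq2, where 0% of genes passed. At an unadjusted p under 0.05 the counts were 0 in hippocampus and 2 in prefrontal cortex. Those 2 were HMGCS1, at -0.34 ± 0.13 (95% interval -0.61 to -0.06, adjusted p = 0.333), and LSS, at -0.25 ± 0.11 (adjusted p = 0.398). Ordered by p, LSS ranked 1601 of the 15531 genes tested there. HMGCS1 in prefrontal cortex was at 217.3, 129.3, 197.0, 208.6 and 151.2 CPM after TBI, against 229.6, 191.9, 258.8, 237.8 and 231.6 CPM in controls, with TBI animals 2 and 5 below every control. In hippocampus IDI1 differed by 0.20 ± 0.11 and DHCR7 by 0.24 ± 0.18, neither past the threshold. The difference of the TBI effect between regions passed for 0 of 5 members in each of the 3 pairs, where 0.0181% (white matter minus prefrontal cortex), 0.00602% (white matter minus hippocampus) and 0% (hippocampus minus prefrontal cortex) of genes passed with edgeR. At an unadjusted p under 0.05 HMGCS1 alone was counted in each pair. Its value for white matter minus hippocampus was -0.94 ± 0.21 (adjusted p = 0.159), and it passed without control animal 5 (-1.05, adjusted p = 0.0436).

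Directly compared in white matter, fWBI was lower than TBI for 1 of 5 members, where 7.36% of genes passed and 2.54% were lower. IDI1 differed by -0.57 ± 0.16 (95% interval -0.91 to -0.22, adjusted p = 0.0459), and its 5 fWBI libraries lay below all 5 TBI libraries. The call did not hold without a filter on low counts (adjusted p = 0.0581) or in 8 of the 10 fits that left out 1 animal of these 2 groups, all but those without fWBI animal 1 or TBI animal 2. SQLE differed by -0.53 ± 0.20 (adjusted p = 0.134), with 3 of 5 fWBI libraries below every TBI library. HMGCS1 differed by -0.44 ± 0.23 (adjusted p = 0.319), DHCR7 by -0.58 ± 0.31 (adjusted p = 0.32) and LSS by -0.13 ± 0.21 (adjusted p = 0.812). In hippocampus and prefrontal cortex 0 of 5 members passed, where 0.339% and 0.29% of genes did, and none had an unadjusted p under 0.05.

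Levels in the control animals ordered the regions differently from gene to gene. DHCR7 averaged 14.0 ± 3.39 CPM in hippocampus, 10.9 ± 2.07 in white matter and 7.18 ± 1.62 in prefrontal cortex (SD, n = 5). Against prefrontal cortex it was higher in hippocampus by 0.95 ± 0.15 (adjusted p = 0.00193) and in white matter by 0.62 ± 0.16 (adjusted p = 0.00479), in 5 of 5 animals each. Hippocampus lay above white matter in 5 of 5 animals, and that difference did not pass (white matter minus hippocampus -0.33 ± 0.15, adjusted p = 0.0837). In all, 1 of 5 members passed for white matter against prefrontal cortex, where 61% of genes did, 1 of 5 for hippocampus against prefrontal cortex (15.1% of genes), and 1 of 5 for white matter against hippocampus (56% of genes, 27.9% lower).

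HMGCS1 averaged 303.2 ± 41.1 CPM in control hippocampus, 230.0 ± 24.2 in prefrontal cortex and 225.6 ± 68.4 in white matter. White matter was the lower of these, with a difference from hippocampus of -0.44 ± 0.15 (adjusted p = 0.0253). That call was lost without animal 2, 3, 4 or 5 (adjusted p from 0.0572 to 0.102), and without white matter libraries 1 and 3 the difference was -0.59 (adjusted p = 0.00331). Hippocampus was above prefrontal cortex in 5 of 5 animals of each treatment group, with a difference of 0.39 ± 0.15 in controls that did not pass (adjusted p = 0.0965) and passed without white matter libraries 1 and 3 (0.40, adjusted p = 0.0248). Without those libraries 23.6% of all genes passed between hippocampus and prefrontal cortex, against 15.1% with them. SQLE averaged 72.8 ± 9.42, 63.0 ± 12.9 and 55.7 ± 7.27 CPM in hippocampus, white matter and prefrontal cortex, and IDI1 77.6 ± 11.5, 84.4 ± 15.1 and 68.2 ± 13.3. LSS averaged 23.7 ± 4.02, 21.1 ± 4.60 and 19.0 ± 1.92 CPM in the same order. No pair of regions passed for these 3 genes.

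After fWBI white matter was the lowest region in 5 of 5 animals for HMGCS1, IDI1 and SQLE. The order of the 3 region means differed from that in controls for IDI1 and SQLE. For HMGCS1 it was the same, white matter being the lowest region in 4 of 5 control animals as well. HMGCS1 averaged 93.7 ± 27.6 CPM (SD, n = 5) in white matter of these animals, 296.7 ± 50.9 CPM in hippocampus and 205.8 ± 17.6 CPM in cortex. Its white matter libraries did not overlap those of either other region. SQLE stood at 36.1 ± 9.82, 75.2 ± 4.04 and 57.4 ± 2.82 CPM in the same regions, also with no overlap. IDI1 stood at 47.9 ± 11.0, 82.5 ± 6.01 and 76.4 ± 19.4 CPM, and its white matter libraries overlapped those of prefrontal cortex. In TBI animals HMGCS1 was lower in white matter (127.5 ± 24.4 CPM) than in hippocampus (336.8 ± 66.4 CPM) in 5 of 5 animals.

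**Figure D3:**
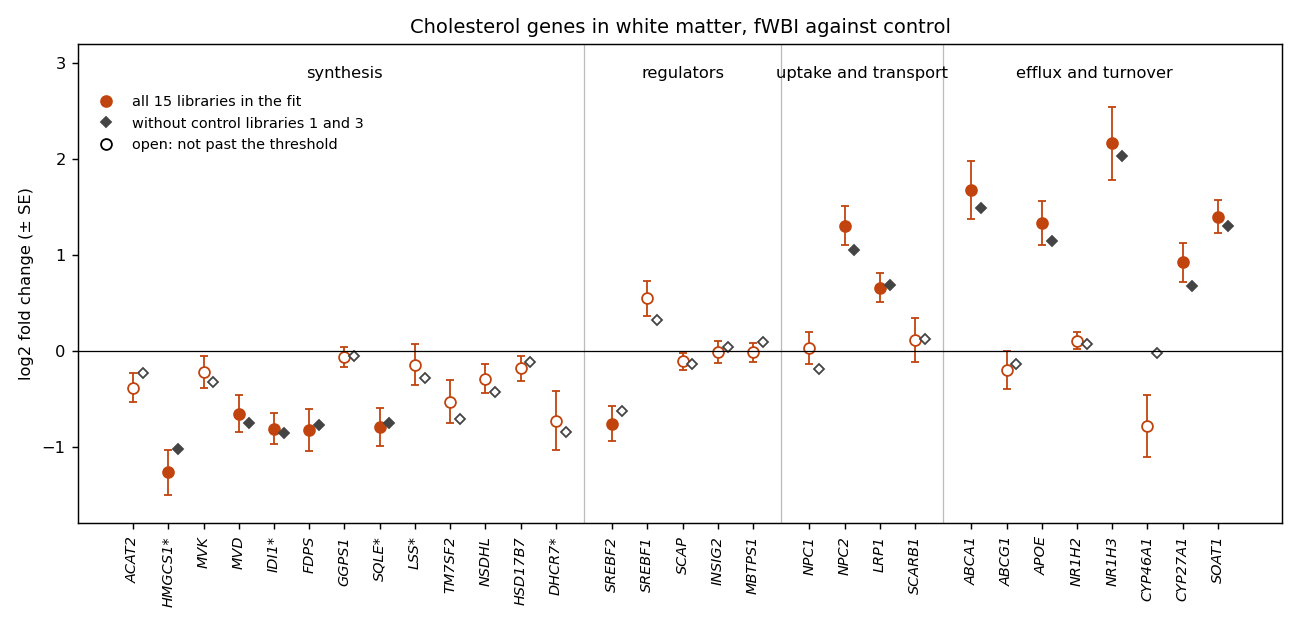
Log2 fold change (vertical axis) of fWBI against control in white matter for selected genes of cholesterol synthesis, its regulators, uptake and efflux (horizontal axis). Asterisks mark the 5 enzymes described here, circles with SE bars use all 15 white matter libraries, diamonds leave out control libraries 1 and 3, and open symbols did not pass. The synthesis genes drawn lie at or below 0, and NR1H3 is the highest point at 2.17.

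The rest of the pathway was read from lists of genes by function, by counts and medians beside those of all genes (8.82% higher, 8.03% lower, median -0.03). Of the other mevalonate and isoprenoid enzymes, 3 of 6 tested fell after fWBI in white matter and none rose, with a median of -0.52. Among them were FDPS, which makes farnesyl diphosphate (-0.82 ± 0.22, adjusted p = 0.0181), and MVD, the mevalonate diphosphate decarboxylase (-0.66 ± 0.19, adjusted p = 0.0281). All 6 had a negative value, the smallest being GGPS1 (-0.07 ± 0.10), whose product leaves the sterol route for protein prenylation. Of the enzymes after lanosterol, 0 of 4 passed with edgeR and 2 had an unadjusted p under 0.05, with a median of -0.36. The first of these in list order, TM7SF2, a sterol reductase, was at -0.53 ± 0.23 (adjusted p = 0.125). Without control libraries 1 and 3 the count was 1 of 4, with a median of -0.52, where 10.8% of all genes passed.

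SREBF2 fell by 0.76 ± 0.18 (adjusted p = 0.00859), the only one of 5 regulators past the threshold, and it did not pass without control libraries 1 and 3 (-0.63 ± 0.20, adjusted p = 0.0592). The list's median was -0.02. In the uptake and transport list 2 of 5 tested genes rose and 1 fell. NPC2, which hands cholesterol out of the lysosome, rose by 1.30 ± 0.20, and LRP1, an endocytic receptor for apolipoprotein E, rose by 0.66 ± 0.15.

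Most efflux, LXR and turnover genes went the other way in the same libraries. Of 8 tested, 5 rose and none fell, with a median of 1.13. SOAT1, which esterifies cholesterol for storage, rose by 1.40 ± 0.17 (adjusted p = 5.49e-05), APOE, the main lipoprotein component of the brain, by 1.33 ± 0.23 (adjusted p = 0.000876), and NR1H3, the LXR alpha receptor, by 2.17 ± 0.38 (adjusted p = 0.000962). The other 2, named after their values were seen, were the exporter ABCA1 (1.68 ± 0.31, adjusted p = 0.00129) and the sterol 27-hydroxylase CYP27A1 (0.93 ± 0.20, adjusted p = 0.00526). All 5 also passed without control libraries 1 and 3. In that fit ABCG1, another exporter, was at -0.14 ± 0.23 (adjusted p = 0.801) and NR1H2 at 0.07 ± 0.10 (adjusted p = 0.757). CYP46A1, the neuronal 24-hydroxylase that clears brain cholesterol, was at -0.79 ± 0.32 (adjusted p = 0.109), and at -0.03 without those libraries. These genes are expressed in phagocytes, among other cells, and the marker levels of activated phagocytes given above were higher in the same fWBI libraries; their part in these rises was not tested. In the fatty acid list 2 of 6 tested genes fell and none rose (median -0.39): FADS1, a fatty acid desaturase (-0.88 ± 0.17, adjusted p = 0.00167), and FASN, fatty acid synthase (-0.69 ± 0.15, adjusted p = 0.00303).

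In hippocampus and prefrontal cortex the same 6 lists held 1 gene past the threshold after fWBI, NPC2 in prefrontal cortex (0.70 ± 0.18, adjusted p = 0.0461). SREBF2 was at -0.33 ± 0.23 in hippocampus and -0.34 ± 0.28 in prefrontal cortex. CYP46A1 was at -0.23 ± 0.11 and -0.33 ± 0.15. At an unadjusted p under 0.05 the lists held 8 of 34 tested genes in hippocampus and 6 of 34 in prefrontal cortex. After TBI 0 of the 34 passed in any region with edgeR, and 9, 4 and 2 had an unadjusted p under 0.05 in white matter, hippocampus and prefrontal cortex. The counts at an unadjusted p have no share of all genes beside them, so they are given as values only. For the difference of the fWBI effect between white matter and prefrontal cortex, 2 of 6 mevalonate genes and 0 of 4 later sterol enzymes were lower, and 4 of 8 efflux genes were higher (4.57% of all genes). Without control white matter libraries 1 and 3 the counts were 1 of 6, 0 of 4 and 2 of 8. The share of all genes past the threshold in either direction was then 6.21%, against 10% with them.

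In controls, 61% of all genes passed between white matter and prefrontal cortex, so counts of list genes are read beside that share. Of the enzymes after lanosterol, 4 of 4 tested had a higher level in white matter, with a median of 1.25, where 29.6% of genes were higher. Among them were TM7SF2 (1.49 ± 0.16, adjusted p = 2.87e-05) and NSDHL, a sterol dehydrogenase (1.00 ± 0.14, adjusted p = 0.000171). In the mevalonate list 2 of 6 tested genes were higher and 1 was lower. Taken in both directions, these calls did not exceed the share of all genes. MVK, mevalonate kinase (1.14 ± 0.20, adjusted p = 0.000544), and MVD (0.53 ± 0.16, adjusted p = 0.0113) were higher. HMGCS1 (-0.04 ± 0.15), IDI1 (0.32 ± 0.16), SQLE (0.18 ± 0.15) and LSS (0.16 ± 0.16) did not pass between these regions. Hippocampus against prefrontal cortex had 3 of 4 enzymes after lanosterol higher (median 0.62, where 7.73% of genes were higher), and 0 of 6 mevalonate genes past the threshold, or 1 of 6 without white matter libraries 1 and 3. Without those libraries 23.6% of all genes passed between these regions, against 15.1% with them.

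**Figure D4:**
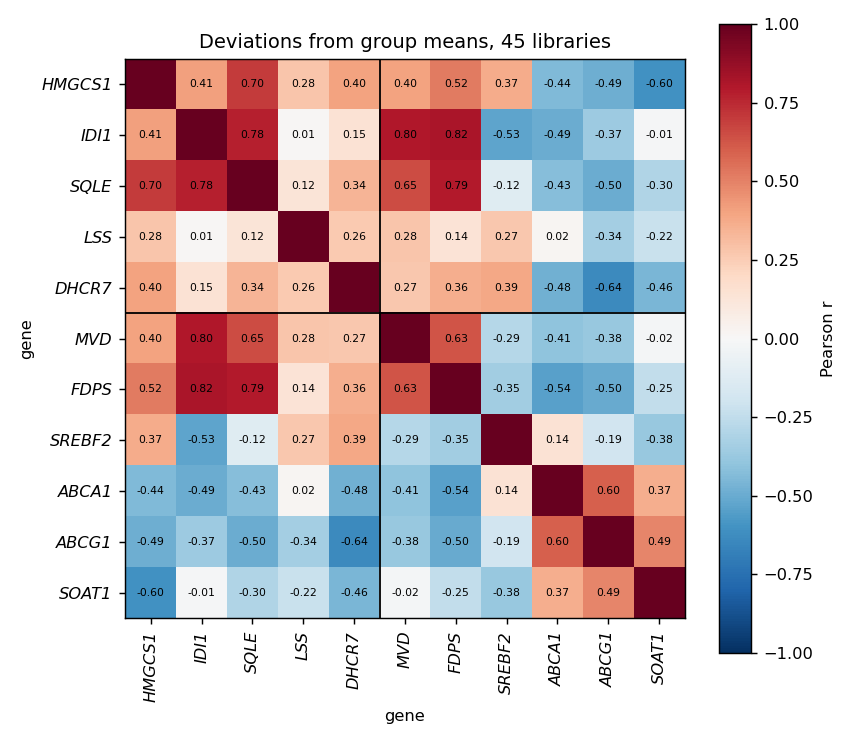
Pearson r between genes (both axes) over the deviations of 45 libraries from their group means in log2 CPM, coloured from -1 (blue) to 1 (red), with the 5 enzymes above and left of the black lines. IDI1 and SQLE reach 0.78 and HMGCS1 and SQLE 0.70, while LSS stays at 0.28 or lower with the other 4 enzymes.

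Within groups, the enzymes varied together to different degrees. The map of correlations takes each library's deviation from its group mean, so that treatment and region are removed; its 45 points come from 15 animals and share library composition, and r is given as a description. The spread was unequal between groups. The mean of the 5 enzymes, each standardised first, had an SD of 0.835 in fWBI, 0.543 in control and 0.587 in TBI white matter. In the grey matter groups that SD was 0.217 to 0.370, so white matter libraries weigh more in r with this mean. IDI1 and SQLE had r = 0.781, HMGCS1 and SQLE 0.70, and HMGCS1 and IDI1 0.41. LSS had r between 0.009 and 0.281 with the other 4, and DHCR7 between 0.147 and 0.403. Over the 9 group means the values were higher for most pairs, 0.939 for HMGCS1 with SQLE, 0.937 for IDI1 with SQLE and 0.857 for SQLE with DHCR7.

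Among the 8 genes most like the mean of the 5 enzymes within groups, of 11994 genes with a symbol, were FDPS (r = 0.752), MVD (0.713), MPI (0.632), LCN12 (0.601), FADS1 (0.555) and UTP11 (0.55). FDPS and MVD are enzymes of the same route. The lowest value of all was that of ABCG1, a cholesterol exporter, at -0.673. By list, 3 of 6 mevalonate genes had r above 0.5, and 20 of the 11994 genes did. The 4 enzymes after lanosterol ranged from 0.126 to 0.304, and the 8 myelin genes from -0.208 to -0.018. Over the 9 group means the most similar genes were MDFI (0.975), EGFL6 (0.955), ST3GAL5 (0.95), CNTN1 (0.946), GLUD1 (0.941), MLLT3 (0.938), TAF1B (0.935) and NFIB (0.935), none of them in the pathway lists.

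Deviations of the same animal in a pair of regions were also compared. Over the 15 animals HMGCS1 had r = 0.681 between hippocampus and prefrontal cortex, 0.372 between white matter and hippocampus, and 0.248 between white matter and prefrontal cortex. DHCR7 had r = 0.546, 0.327 and 0.516 for the same pairs. IDI1 had 0.157, 0.315 and -0.196, SQLE had 0.048, 0.237 and -0.032, and LSS lay between -0.075 and 0.137. The mean of the 5 enzymes, each standardised first, had r = 0.647 between hippocampus and prefrontal cortex, 0.039 between white matter and hippocampus, and -0.03 between white matter and prefrontal cortex.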

How the data were processed

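Raw counts per gene for 45 libraries, whole numbers with unequal totals, were deposited by the authors in 1 table. Per the labels' protocols, RNA came from tissue of saline-perfused animals and libraries were stranded total RNA after ribosomal RNA removal. FastQC, STAR, featureCounts and DESeq2 are listed in the submitters' processing notes; for build, annotation and strand setting the sources used here state nothing, so overlapping antisense genes may share counts. Symbols were matched by ID for 15769 of 30246 rows; no sequence or coordinates are given. Members, gene lists and alternatives were chosen with earlier results of these data known.

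Counts were scaled by TMM, filtered with edgeR's default and tested with edgeR 4.0.16 (R 4.3.3), two-sided. Irradiation was tested within 1 region on 15 libraries, regions within the 5 control animals (blocked by animal), and the difference of an effect between regions on 45 libraries (blocked by 15 animals). CPM was scaled by TMM over the 45 libraries, and log2 CPM used a prior count of 2. Named genes were all members, and up to 3 with the smallest p past the threshold from each of 6 pathway lists for fWBI against control and for regions, or the first tested gene where none passed. SREBF2 and CYP46A1 were always given, and the 8 genes most like the members' mean were taken. A few list genes chosen this way are left out of the text and plots, though counts and medians over lists include them. Libraries of 1 animal in different regions deviated together across genes (median r = 0.288 over 45 pairs, 41 above 0.1), and the labels give that pairing. On simulated data for fWBI against control in white matter (15100 genes), 65.3% of 2-fold and 91.8% of 4-fold changes were recovered. Few genes were changed there, and the others had a common mean in all libraries. These rates need not hold for the real comparison, in which 16.8% of genes passed. No 2 libraries of the same treatment and region agreed within sampling noise (smallest chi-square per gene 6.49). Pairs from different groups were not compared in this way. Alternatives were DESeq2 size factors, the DESeq2 1.42.0 test, other filters, other libraries in the fit, a marker covariate for the dissection, blocks, and leaving out each animal. In the alternative with all 45 libraries, irradiation against control and fWBI against TBI were fitted without a block for animal.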

Additional observations from a re-analysis of the deposited data

Results flagged for a closer look

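For 3 of the 5 enzymes the fWBI effect differed between white matter and the grey matter regions of the same animals, by a test of the difference itself. Against prefrontal cortex the difference was -1.11 for HMGCS1, -0.97 for IDI1 and -0.85 for SQLE, with edgeR adjusted p of 0.000682, 0.00653 and 0.00629. Against hippocampus it was -1.24, -0.90 and -0.86 in the same order, with adjusted p of 0.000221, 0.0122 and 0.00617. Without control white matter libraries 1 and 3 the values against prefrontal cortex were -0.96, -0.97 and -0.80 (adjusted p = 0.00453, 0.0201 and 0.0264). Those against hippocampus were -1.08, -0.88 and -0.79 (adjusted p = 0.00165, 0.0395 and 0.0309). Dixon's criterion was applied to the log2 CPM of each member in each of the 9 groups, 45 sets of 5 values. In none of them was the highest or lowest value set apart. Whole libraries were not tested in this way.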

How the results depend on the processing

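Of 1100 values of 70 member results under the alternatives, 1022 kept their direction and their side of the threshold, 15 lost and 14 gained a call, and 49 changed sign. None of the results past the threshold changed sign, and the largest size among those that did was 0.18. In white matter after fWBI, HMGCS1 ranged from -1.37 to -0.999 over 19 alternatives (adjusted p up to 0.00816), IDI1 from -0.91 to -0.68 (up to 0.0137) and SQLE from -0.88 to -0.64 (up to 0.0443), so all 3 passed in each. DHCR7 ranged from -0.98 to -0.54 and passed with all 45 libraries (no block for animal) and without fWBI animal 5. The replicate numbers of different treatment groups did not pair the samples (median r = 0.013 across genes, 13 of 45 pairs above 0.1).

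Besides the calls that DHCR7 gained after fWBI, given above, counts of members past the threshold changed as follows. The cause was not tested. Except where stated, no share of all genes in the same fit stands beside these counts, so they are given as values only. For TBI against control in white matter the count was 1 with DESeq2 and 1 with all 45 libraries, against 0. For fWBI against TBI in white matter it was 0 with no filter, 2 with the replicate block and 2 with all 45 libraries, against 1, and 0 to 1 when 1 animal was left out. For hippocampus against prefrontal cortex in controls it was 2 without control white matter libraries 1 and 3 (where 23.6% of genes passed, against 15.1%) and 3 with all 45 libraries (added after seeing the data), against 1, and 1 to 2 when 1 animal was left out. For white matter against hippocampus it was 0 with no filter and 0 with no replicate block, against 1, and 0 to 1 when 1 animal was left out. For the TBI effect in white matter minus hippocampus it was 0 to 1 when 1 animal was left out. The blocks changed no other count.

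The values that changed sign had not passed. With no filter they were 0.012 (fWBI) and 0.0089 (TBI) for DHCR7 and 0.0023 for IDI1 (TBI), all in prefrontal cortex. With the marker covariate SQLE was at -0.025 after TBI in hippocampus. Without control white matter libraries 1 and 3, LSS was at 0.041 for white matter against hippocampus, at -0.038 and -0.039 for the fWBI effect in white matter minus prefrontal cortex and minus hippocampus, and at -0.014 for the TBI effect minus hippocampus, and SQLE at 0.0083 for the TBI effect minus prefrontal cortex.

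The others changed sign when 1 animal was left out. After fWBI the ranges were -0.14 to 0.027 for HMGCS1 and -0.020 to 0.10 for SQLE in hippocampus, and -0.018 to 0.098 for SQLE and -0.11 to 0.075 for DHCR7 in prefrontal cortex. After TBI they were -0.13 to 0.13 for LSS in white matter, -0.061 to 0.070 for SQLE in hippocampus, and -0.18 to 0.066 for IDI1 and -0.12 to 0.069 for DHCR7 in prefrontal cortex. In controls HMGCS1 ranged from -0.16 to 0.022 for white matter against prefrontal cortex, and LSS from -0.28 to 0.018 for white matter against hippocampus. For the fWBI effect in white matter minus hippocampus LSS ranged from -0.013 to 0.27, and for the TBI effect there from -0.052 to 0.36. For the TBI effect in white matter minus prefrontal cortex SQLE ranged from -0.13 to 0.11 and DHCR7 from -0.23 to 0.019.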
